A study of Mus musculus with 93 samples.

Results

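The response of the PPARα −/− liver to a single dose of linoleic acid triglyceride (C18:2) was examined by comparing the livers of 5 PPARα −/− mice given C18:2 with those of 4 PPARα −/− mice of the later control group (control2), 1 array per mouse, which are 9 of the 93 arrays of the series. All 11412 probesets of the deposited table other than its 51 Affymetrix control probesets were used. The C18:2 mice received 400 µl of a synthetic triglyceride whose fatty acids were all linoleic acid, and the control2 mice received 400 µl of 0.5% carboxymethylcellulose by the same gavage, so that a bolus of oil and its fatty acid were given together and cannot be told apart here. Both groups carried the PPARα deletion on the 129S4/SvJae strain, were males of 8 to 24 weeks, had been fasted for 4 hours and were killed 6 hours after the gavage. For comparison, 4 WT mice (129S1/SvImJ) given C18:2, 4 WT control2 mice, and 5 PPARα −/− mice each given linolenic acid triglyceride (C18:3) or capric acid triglyceride (C10:0) were used, all from the same later run of arrays. The WT mice are of another substrain than the PPARα −/− mice, so substrain and PPARα cannot be told apart between the genotypes.

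Linoleic acid is a polyunsaturated fatty acid. Polyunsaturated fatty acids are ligands of PPARα, the receptor through which the fasted liver turns on its oxidation genes. They are also known to lower the transcription and processing of SREBP-1c, a product of Srebf1. SREBP-1c switches on the genes of fatty acid synthesis (lipogenesis). In mice without PPARα the first route is closed, and what remains can be read from the lipogenic genes, from other nuclear receptors such as the liver X receptor (LXR), CAR and PXR, and from genes that respond to hormones or to inflammation.

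The probeset of Ppara with the lowest signal separated the genotypes: its log2 signal lay between 7.16 and 7.47 in C18:2 and between 7.21 and 7.93 in control2 PPARα −/− livers, against 9.22 to 9.41 in C18:2 and 8.57 to 9.04 in control2 WT livers. Of the other 2 Ppara probesets, 1 also separated these arrays and 1 overlapped, and which part of the gene each probeset reads was not analysed here. The median log2 signal per array was between 7.26 and 7.38 in the 9 arrays, and the correlation between arrays across all probesets was 0.967 to 0.984 among C18:2 arrays and 0.949 to 0.978 among control2 arrays. The control2 mouse 4 deviated most from its group (SD of the deviations 0.434 in log2). Hepatocyte markers had a mean log2 signal of 12.25 to 12.46 in C18:2 and 12.32 to 12.49 in control2 livers. Of 52 measured markers of other cell types in 8 lists, none had an adjusted p under 0.05, and the mean signal of each of these lists overlapped between the groups.

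Few probesets passed a test across the whole table. In limma's moderated test with Benjamini-Hochberg adjustment, 18 probesets of 17 genes had an adjusted p under 0.05, 0.158% of all probesets, of which 13 were higher (0.114%) and 5 lower (0.0438%) with C18:2 than with control2. The arrays of the groups did not overlap for 15 of the 18, where 1.92% of all probesets lay wholly above and 1.97% wholly below the controls. The study's own threshold, an unadjusted p under 0.01, is called the nominal threshold here. It was passed by 535 probesets (4.69%), 303 higher (2.66%) and 232 lower (2.03%). The words rose and fell are kept for an adjusted p under 0.05, and other genes are given with their values and adjusted p. The count of 18 moved on leaving out any single mouse. It became 33, 8, 1 and 69 when control2 mice 1, 2, 3 and 4 were left out, and 2, 47, 39, 1 and 107 when C18:2 mice 1, 2, 3, 4 and 5 were left out. Srebf1 was the gene that kept an adjusted p under 0.05 in all 9 of these fits.

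The promoters of 4 genes are shown, of which those of Srebf1 and Fasn were taken for their matches, as given below. Srebf1 is the regulator of lipogenesis, and Fasn is the fatty acid synthase that it controls. Gpam is the enzyme of the entry step of glycerolipid synthesis, and Hacl1 is a lyase of peroxisomal alpha-oxidation. The sequences are those of RefSeq for build GRCm38.p6 and run 5′ to 3′ along the gene, 250 bases before to 50 after an annotated start, all on the minus strand. The window of Srebf1 is chr11:60210422-60210721, of 3 listed for the gene the one with LXR element letters, that of Fasn chr11:120824498-120824797, that of Gpam chr19:55127189-55127488, of 2 listed for the gene the one with any of the motifs searched, and that of Hacl1 chr14:31640916-31641215. Capitals mark matches on either strand to an LXR element (GGTTA and CGGNC with 4 bases between them), a sterol regulatory element (TCACNCCAC), an E-box (CACGTG), a PPAR element (AGGNCA repeated with 1 base between), a glucocorticoid element (AGNACA and TGTNC with 3 bases between) or an inverted CCAAT box (ATTGG). Overlapping matches run together.
Srebf1: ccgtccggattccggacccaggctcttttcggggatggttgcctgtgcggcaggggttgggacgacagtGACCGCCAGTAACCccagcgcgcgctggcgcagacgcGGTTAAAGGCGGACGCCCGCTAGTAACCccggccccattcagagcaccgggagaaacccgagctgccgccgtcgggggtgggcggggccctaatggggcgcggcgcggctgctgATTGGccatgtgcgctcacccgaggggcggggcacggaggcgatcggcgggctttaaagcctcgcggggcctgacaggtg
Fasn: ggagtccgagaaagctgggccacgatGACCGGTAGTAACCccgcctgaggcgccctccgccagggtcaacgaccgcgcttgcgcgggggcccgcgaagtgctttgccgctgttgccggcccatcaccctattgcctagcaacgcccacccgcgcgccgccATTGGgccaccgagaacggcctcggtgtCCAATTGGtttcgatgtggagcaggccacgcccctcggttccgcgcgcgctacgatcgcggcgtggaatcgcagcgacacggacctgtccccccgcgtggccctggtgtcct
Gpam: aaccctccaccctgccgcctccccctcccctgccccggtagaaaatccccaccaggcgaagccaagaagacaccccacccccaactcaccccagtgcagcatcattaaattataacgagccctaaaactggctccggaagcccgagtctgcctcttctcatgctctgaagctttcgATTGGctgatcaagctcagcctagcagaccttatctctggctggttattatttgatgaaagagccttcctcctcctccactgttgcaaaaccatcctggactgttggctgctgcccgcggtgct
Hacl1: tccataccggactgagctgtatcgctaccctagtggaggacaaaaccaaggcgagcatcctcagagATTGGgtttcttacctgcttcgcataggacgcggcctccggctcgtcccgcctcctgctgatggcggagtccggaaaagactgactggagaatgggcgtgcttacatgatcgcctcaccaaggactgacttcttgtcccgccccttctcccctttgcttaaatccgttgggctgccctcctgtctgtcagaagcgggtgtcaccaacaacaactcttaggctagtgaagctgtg
Of 19 windows of 14 genes searched, 2 held the LXR letters, the Srebf1 window 3 times and the Fasn window once, and both are shown for that reason. The other windows of Srebf1 and those of Acaca, Mid1ip1, Elovl5, Slc2a2, Fmo2, Fkbp5, Saa4, Gde1, Plin5 and the LXR target Lpcat3 did not hold them. Of all 32851 windows of the same length 0.116% did. The LXR letters are 1 form of the element, and whether they were drawn from elements of these same genes was not examined. That share is therefore no test of the Srebf1 and Fasn windows. The inverted CCAAT box was in 11 of the 19 windows and in 37.4% of all windows, and since windows were chosen by their matches, its presence in those shown says nothing about them. The sterol regulatory element (1.24% of all windows), the E-box (7.15%), the PPAR element (0.381%) and the glucocorticoid element (0.289%) were not among the letters of the 4 windows shown. A match is only a match of letters, and the arrays measured no binding.

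Srebf1 had the lowest p of all probesets. Its log2 signal was 5.36, 6.29, 5.93, 5.02 and 6.59 in the C18:2 livers, against 8.57, 8.74, 8.87 and 7.46 in the control2 livers. All C18:2 livers were below all control2 livers, and control2 mouse 4 was the lowest of the controls. Srebf1 fell 5.94-fold (log2 change −2.57 ± 0.41 SE, adjusted p = 0.00018, n = 5 and 4). Without any single mouse its log2 change was between −2.89 and −2.37, with an adjusted p of at most 0.0069. Fitted on the 9 compared arrays alone, Srebf1 had an adjusted p of 0.083, and none of the 18 probesets had one under 0.05. Which transcripts of Srebf1 its probeset reads was not analysed here.

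**Figure D1:**
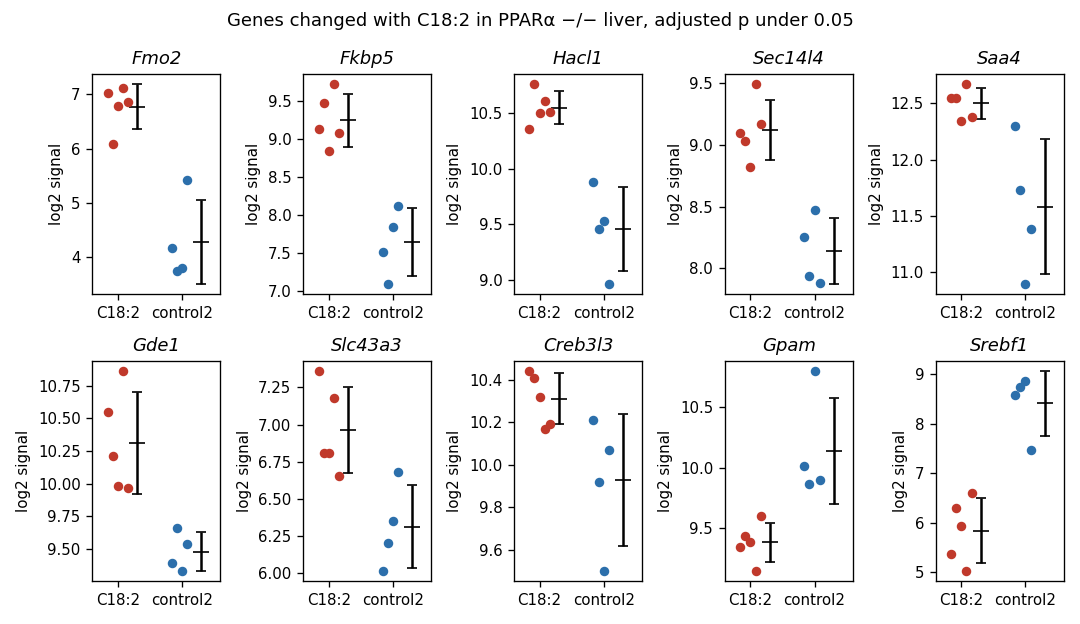
Log2 signal per array of the 10 genes whose main probeset had an adjusted p under 0.05, in PPARα −/− livers after C18:2 (red, 5 mice) and control2 (blue, 4 mice), with mean and SD beside the points; scales differ between panels. The groups do not overlap for 8 genes, and they overlap for Slc43a3 and Creb3l3.

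The lipogenic genes had negative log2 changes as a list, but the mice of the 2 groups overlapped. The list mean, minus the mean of the controls, was −1.34 to −0.29 in the C18:2 livers and −0.66 to 0.91 in the control2 livers. Control2 mouse 4 (−0.66) lay below C18:2 mice 2 (−0.38), 3 (−0.65) and 5 (−0.29). Of 19 measured lipogenic genes, all 19 had a negative log2 change, against 3789 of all 6661 genes (56.9%), with a median of −0.57 against −0.029 for all genes. Srebf1 was the member with an adjusted p under 0.05, where 0.0300% of all genes were lower at that threshold. At the nominal threshold 6 members were lower and none higher, where 2.40% of all genes were lower. Beside Srebf1 these were Mid1ip1, which activates acetyl-CoA carboxylase (log2 change −1.46 ± 0.39 SE, adjusted p = 0.067), Fasn (−1.13 ± 0.37, 0.14), Acss2, which makes acetyl-CoA from acetate (−1.13 ± 0.41, 0.20), Tkfc, the triokinase of fructose use (−1.10 ± 0.36, 0.13), and Acaca, the acetyl-CoA carboxylase of fatty acid synthesis (−1.05 ± 0.28, 0.057). At the other end Scd1, the desaturase of saturated fatty acids, had a log2 signal of 13.40 in C18:2 and 13.41 in control2 livers.

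One control mouse set much of the size of these values. The log2 signal of Fasn was 7.42, 8.12, 7.97, 6.60 and 8.37 in C18:2 livers, against 8.20, 8.44, 10.54 and 8.13 in control2 livers. Control2 mouse 3 was thus far above the rest, and the other controls overlapped the C18:2 livers. Acaca followed the same order, with 6.81, 7.21, 7.09, 6.27 and 7.73 in C18:2 livers, against 7.55, 7.99, 9.24 and 7.53 in control2 livers. Mid1ip1 had 5.19, 5.97, 5.69, 4.42 and 6.07 in C18:2 livers, against 6.81, 6.85, 7.66 and 6.38 in control2 livers, which did not overlap. Without control2 mouse 3 the median of the list was −0.26, 16 of 19 members were negative and 2 passed the nominal threshold, Srebf1 (log2 change −2.42 ± 0.44) and Mid1ip1 (−1.21 ± 0.42), while Fasn was at −0.56 ± 0.37 and Acaca at −0.67 ± 0.28. Without C18:2 mouse 4, which had the lowest values, 3 members passed the nominal threshold and the median was −0.41.

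**Figure D2:**
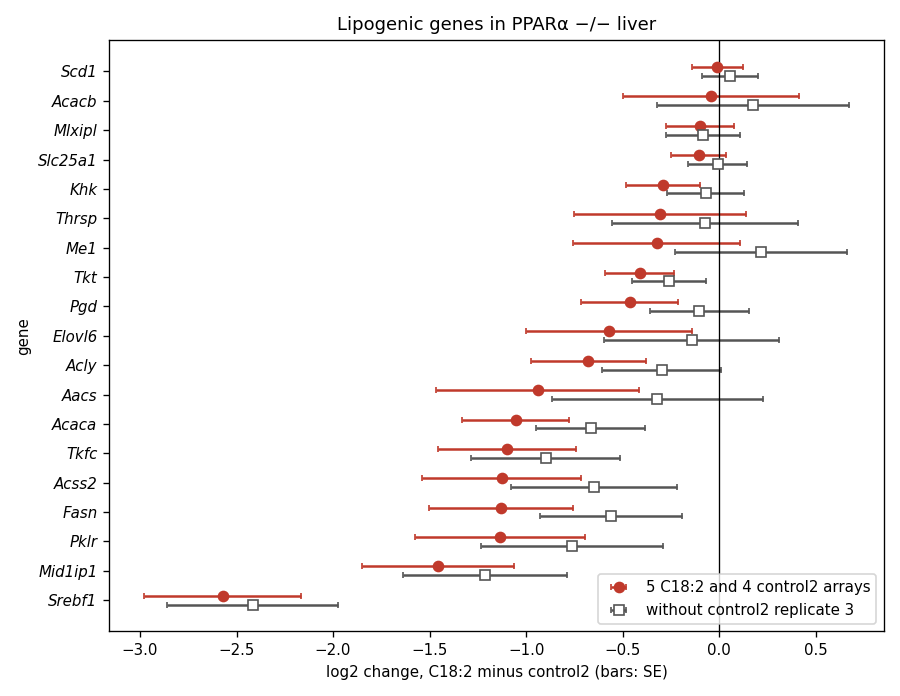
Log2 change of the 19 measured lipogenic genes, C18:2 minus control2 in PPARα −/− liver, with SE, from all 9 arrays (red circles) and without control2 mouse 3 (open squares). Srebf1 stays near its value (−2.57 and −2.42), and Fasn moves between −1.13 and −0.56.

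Of the enzymes that use or remodel fatty acids downstream of lipogenesis, Gpam fell. Gpam had a log2 signal of 9.34, 9.43, 9.38, 9.14 and 9.60 in C18:2 livers, against 10.01, 9.86, 10.80 and 9.90 in control2 livers. No C18:2 liver reached the lowest control, and control2 mouse 3 was again the highest. Gpam fell 1.70-fold (log2 change −0.76 ± 0.17 SE, adjusted p = 0.036), but its adjusted p was 0.05 or more without control2 mouse 3, C18:2 mouse 1 or C18:2 mouse 4, with 0.20 at most. A second, weaker probeset of Gpam had a log2 change of −0.48 ± 0.44 (adjusted p = 0.69). Elovl5, the elongase of polyunsaturated fatty acids, had a log2 change of −0.56 ± 0.16 (adjusted p = 0.088) and was the member of 10 measured genes of polyunsaturated fatty acid synthesis to pass the nominal threshold. Lpcat3, a target of LXR that places polyunsaturated acyl chains into phospholipids, was 8.43, 8.53, 8.51, 8.42 and 8.54 in C18:2 livers, against 9.39, 8.87, 8.95 and 8.89 in control2 livers (log2 change −0.54 ± 0.15, adjusted p = 0.083). Of 11 measured LXR targets and sterol export genes it was the one past the nominal threshold, and the median of that list was −0.23. Of all genes 2.40% were lower at that threshold. The count for polyunsaturated fatty acid synthesis was 0 without control2 mouse 2, and that for LXR targets 0 without control2 mouse 1. Slc2a2, the glucose transporter of hepatocytes, was 10.08, 10.64, 10.73, 9.54 and 10.94 in C18:2 livers, against 11.23, 11.24, 11.67 and 11.19 in control2 livers (−0.95 ± 0.25, adjusted p = 0.061). None of 19 measured cholesterol synthesis genes passed the nominal threshold, and their median of −0.16 turned to 0.13 without control2 mouse 3, with 12 of 19 positive.

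Among the genes that rose, Fmo2, a flavin-containing monooxygenase, had the largest fold. Its main probeset had a log2 signal of 7.03, 6.09, 6.78, 7.11 and 6.85 in C18:2 livers, against 4.17, 3.74, 3.80 and 5.42 in control2 livers, and control2 mouse 4 was the highest control. Fmo2 rose 5.63-fold (log2 change 2.49 ± 0.53 SE, adjusted p = 0.024), and a second probeset rose by 2.03 ± 0.47 (adjusted p = 0.040). The mean of the controls, 4.28, stood just above the 5th percentile of all signals in these arrays (4.15), so the controls were close to the lowest signals of the array. The adjusted p of the main probeset was 0.05 or more without control2 mouse 2 or 3 or C18:2 mouse 1 or 4 (0.11 at most).

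Fkbp5, a co-chaperone of the glucocorticoid receptor and a known target of it, was 9.13, 9.48, 8.84, 9.72 and 9.08 in C18:2 livers, against 7.51, 7.09, 7.85 and 8.12 in control2 livers. It rose 3.05-fold (log2 change 1.61 ± 0.38 SE, adjusted p = 0.044), and its second probeset had a log2 change of 2.14 ± 0.57 (adjusted p = 0.057). The groups did not overlap for either probeset.

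Hacl1, which cleaves hydroxylated acyl-CoA in the peroxisome, was 10.36, 10.76, 10.50, 10.61 and 10.51 in C18:2 livers, against 9.88, 9.46, 9.53 and 8.96 in control2 livers. It rose 2.13-fold (log2 change 1.09 ± 0.23 SE, adjusted p = 0.024). Sec14l4, a member of the Sec14 family of lipid-binding proteins, rose 1.98-fold (0.99 ± 0.22, adjusted p = 0.036), with 8.82 to 9.49 in C18:2 and 7.88 to 8.47 in control2 livers. Gde1, a glycerophosphodiester phosphodiesterase, rose 1.78-fold (0.83 ± 0.17, adjusted p = 0.024), with 9.97 to 10.86 in C18:2 and 9.33 to 9.66 in control2 livers. Neither group overlapped the other for these genes.

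Saa4, the serum amyloid A that is made in the liver at all times, was 12.55, 12.55, 12.34, 12.67 and 12.38 in C18:2 livers, against 12.30, 11.73, 10.89 and 11.38 in control2 livers. Control2 mouse 1 lay just below the C18:2 livers. Saa4 rose 1.90-fold (log2 change 0.93 ± 0.22 SE, adjusted p = 0.049). Creb3l3, a transcription factor of liver that drives lipid and acute phase genes, rose 1.3-fold (0.38 ± 0.09, adjusted p = 0.041), and Slc43a3, a transporter of nucleobases, rose 1.57-fold (0.65 ± 0.15, adjusted p = 0.040). For Creb3l3 the highest control (10.21) lay above 2 C18:2 livers (10.17 and 10.19), and for Slc43a3 the highest control (6.68) lay above 1 (6.65).

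Another 7 genes passed the threshold on a probeset other than the one with their highest signal, and were named after their values were seen. Etfbkmt, a methyltransferase of the electron transfer flavoprotein, rose by 1.07 ± 0.24 in log2 (adjusted p = 0.037), and its stronger probeset had 0.69 ± 0.25 (adjusted p = 0.19). Slc25a20, the carrier of acylcarnitine across the inner mitochondrial membrane, rose by 0.77 ± 0.17 (0.035), with 0.46 ± 0.14 (0.11) on the stronger probeset. Fgf1, a growth factor, rose by 0.82 ± 0.19 (0.044), with 0.70 ± 0.19 (0.057). Igf1, the growth factor that liver releases in response to growth hormone, rose by 0.53 ± 0.11 (0.024), and its other 3 probesets had 0.24 to 0.50. Ddah1, which degrades methylated arginines, was 4.25, 3.88, 6.01, 4.43 and 4.77 in C18:2 livers, against 7.0, 6.40, 6.83 and 6.82 in control2 livers, and fell by 2.09 ± 0.44 in log2 (adjusted p = 0.024), and its other probesets, at −1.57 ± 0.41 and −1.45 ± 0.42, did not overlap between the groups either. Coq8a, needed for ubiquinone synthesis, fell by 1.32 ± 0.30 (0.036), with −0.53 ± 0.24 (0.30) on the stronger probeset. Fam210a, a mitochondrial protein, fell by 0.92 ± 0.21 (0.038), and its other 3 probesets had −0.35, −0.55 and −1.0. All 7 kept the same sign on all their probesets.

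Each of the genes other than Srebf1 lost its adjusted p under 0.05 in at least 3 of the 9 fits that left out 1 mouse, with log2 changes that kept their sign. The fits without C18:2 mouse 1, C18:2 mouse 4 or control2 mouse 3 were among these for every one of them.

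Genes of fatty acid oxidation held a few members past the nominal threshold. Of 25 measured PPARα targets, 6 were higher and none lower at the nominal threshold, where 2.42% of all genes were higher, and the median log2 change was 0.30. Creb3l3 was the member with an adjusted p under 0.05 on its main probeset, where 0.120% of all genes were higher. Acot1, a cytosolic acyl-CoA thioesterase, was 9.67, 9.25, 8.73, 9.62 and 8.96 in C18:2 livers, against 8.58, 8.28, 6.95 and 8.18 in control2 livers, which did not overlap (log2 change 1.25 ± 0.35, adjusted p = 0.076). Angptl4, a secreted inhibitor of lipoprotein lipase (0.72 ± 0.22, 0.11), Plin2, a coat protein of lipid droplets (0.63 ± 0.23, 0.20), Slc25a20, and Cpt1a, the carnitine palmitoyltransferase that admits fatty acids to mitochondria (0.38 ± 0.13, 0.18), were the others. Without control2 mouse 3, 2 members were higher and 1 lower at the nominal threshold and the median was 0.15. Without C18:2 mouse 4 the median was 0.13, with 4 higher. With 16 added to each value before log2 the median was 0.17. After quantile normalization it was 0.21, with 4 higher. In control2 mouse 3 the mean of this list was the lowest of the 9 mice, 0.37 under the mean of the controls, and that of the lipogenic list the highest, 0.91 above it. Of 19 measured enzymes and carriers of mitochondrial beta-oxidation, 4 were higher and 1 lower at the nominal threshold, with a median of 0.014. Leaving out 1 mouse gave 0 to 4 higher, with 0 higher and 1 lower without control2 mouse 3, and medians of −0.01 to 0.08. The higher ones were Slc25a20, Cpt1a, Eci2 (0.41 ± 0.12, adjusted p = 0.095) and Acadl (0.40 ± 0.13, 0.13), and the lower one was Hadh (−0.33 ± 0.12, 0.18). Of 21 measured genes of peroxisomal oxidation, 2 were higher (Hacl1 and Eci2), with a median of 0.059 that lay between −0.06 and 0.11 on leaving out 1 mouse.

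None of the other genes named by the study had an adjusted p under 0.05. Ehhadh, the peroxisomal bifunctional enzyme, was 9.32, 9.57, 9.30, 9.39 and 9.50 in C18:2 livers, against 9.73, 9.81, 9.52 and 9.09 in control2 livers (log2 change −0.12 ± 0.24, 95% interval −0.60 to 0.36). Pdk4, which holds back pyruvate oxidation, had a log2 change of −0.20 ± 0.65 (interval −1.5 to 1.09), and its value in C18:2 mouse 5 (7.60) stood apart from the other C18:2 livers (6.45 to 6.72). The fatty acid transporter Cd36 had −0.11 ± 0.30, the fatty acid binding protein Fabp4 0.00 ± 0.43 and Txnip, an inhibitor of glucose uptake, 0.08 ± 0.28. Cyp4a14, an omega-hydroxylase, was among the lowest signals in both groups (2.77 and 2.11), and no change is given for it. Lpin2, a phosphatidate phosphatase, was 10.68, 9.92, 10.31, 10.25 and 10.36 in C18:2 livers, against 9.44, 9.69, 9.92 and 10.53 in control2 livers (0.41 ± 0.22, adjusted p = 0.42). C18:2 mouse 2 lay level with control2 mouse 3, and control2 mouse 4 was above 4 of the 5 C18:2 livers. Cpt1b is not given because its 1 annotated probeset is shared with other genes, and Prlr because the annotation used here names no probeset for it.

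Lipid droplet genes had a median log2 change of 0.27 over 12 measured members. Plin5, the droplet coat protein that tethers mitochondria, was 5.08, 5.50, 5.92, 8.13 and 7.11 in C18:2 livers, against 4.42, 3.44, 4.67 and 6.04 in control2 livers (log2 change 1.70 ± 0.41, adjusted p = 0.051). C18:2 mouse 4 was the highest of its group, and control2 mouse 4 of the controls. Of 14 measured CAR and PXR targets and drug metabolism genes, 3 were higher at the nominal threshold, against 2.42% of all genes, and 1 without control2 mouse 3 or without C18:2 mouse 4. Cyp2b10, the cytochrome that CAR induces, was 7.08, 6.71, 4.32, 8.47 and 5.62 in C18:2 livers, against 3.01, 2.52, 2.81 and 3.35 in control2 livers. All C18:2 livers were above all controls, whose mean (2.92) was among the lowest signals. The C18:2 mean of Cyp2b10 was 4.90-fold above the 5th percentile of all signals (adjusted p = 0.078), a bound that leaves out the spread of the mice.

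Most interferon-induced genes had a higher mean signal after C18:2. Of 27 measured, 23 had a positive log2 change, against 43.1% of all genes, with a median of 0.59, and 6 were higher (2.42% of all genes) and none lower at the nominal threshold, none of them with an adjusted p under 0.05. Usp18, which removes the ubiquitin-like protein Isg15, was 9.49, 8.49, 8.32, 8.97 and 7.97 in C18:2 livers, against 7.25, 7.61, 6.17 and 7.27 in control2 livers (log2 change 1.57 ± 0.55, adjusted p = 0.18). Oasl1 (1.65 ± 0.54, 0.13), Ifit3 (1.11 ± 0.41, 0.20) and Irf9, a subunit of the factor that transmits the interferon signal (0.92 ± 0.29, 0.12), were among the others. Ifit2 and Oasl2 were among the lowest signals in the controls. Their C18:2 means were 2.05-fold and 1.5-fold above the 5th percentile of all signals (adjusted p = 0.084 and 0.15), bounds that leave out the spread of the mice. The mean over the list was 0.39 to 1.00 above the mean of the controls in the C18:2 livers and −0.30 to 0.35 in the control2 livers, without overlap. The count at the nominal threshold was 2 without control2 mouse 3, 3 without control2 mouse 4 or C18:2 mouse 1, and 10 without control2 mouse 2.

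Acute phase genes were all on one side. All 25 measured had a positive log2 change (43.1% of all genes), with a median of 0.30, and 2 were higher at the nominal threshold (2.42% of all genes), Saa4 and Cebpd, a transcription factor of the acute phase (1.01 ± 0.36, adjusted p = 0.18). Without control2 mouse 1 this count was 5, and without control2 mouse 2 or C18:2 mouse 4 it was 1. The list mean was 0.30 to 1.02 above the mean of the controls in the C18:2 livers, against −0.31 to 0.41 in the control2 livers, and C18:2 mouse 4 was the highest. Of 20 measured immediate early genes, 18 had a positive log2 change (median 0.44), but the mice differed more than the groups, with list means of −0.04 to 1.05 in C18:2 livers and −0.66 to 0.68 in control2 livers, and at the nominal threshold 1 member was higher (Klf2, 0.94 ± 0.32, adjusted p = 0.16) and 1 lower (Ccn1). Ccn1, a secreted matrix protein, did not overlap between the groups and was among the lowest signals in C18:2 livers. Its control2 mean was 1.15-fold above the 5th percentile of all signals (adjusted p = 0.12), a bound that leaves out the spread of the mice. Leaving out 1 mouse gave 0 to 3 higher and 0 to 1 lower. With 16 added to each value before log2 the median was 0.29, with 1 higher and 0 lower. Of all genes 2.42% were higher and 2.40% lower at that threshold. Hmox1 and the monocyte receptor Cd14 were highest in C18:2 mice 4 and 1, and the groups overlapped for both. Hmox1, which breaks down heme, was 7.38, 4.94, 4.65, 8.72 and 4.25 in C18:2 livers, against 4.57, 4.25, 4.84 and 4.07 in control2 livers. Cd14 was 6.15, 3.90, 5.27, 7.61 and 3.70 in C18:2 livers, against 3.63, 3.2, 3.09 and 4.84 in control2 livers. The 18 Kupffer cell and macrophage markers together had a mean log2 signal of 6.72 to 7.34 in C18:2 and 6.67 to 7.39 in control2 livers; their part in these results was not tested.

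**Figure D3:**
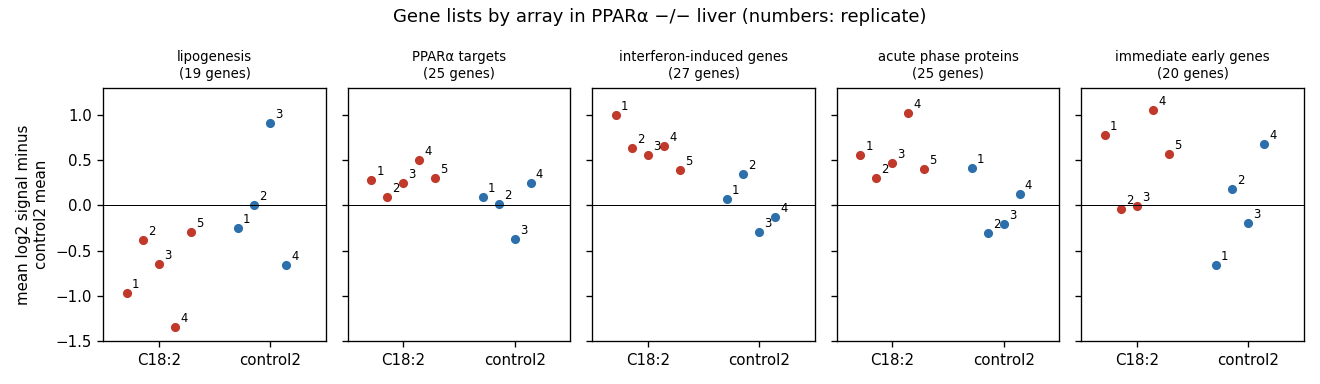
Mean log2 signal of 5 gene lists in each array, minus the mean of the 4 control2 arrays, for PPARα −/− livers after C18:2 (red) and control2 (blue); numbers are the mice. The interferon-induced list does not overlap between the groups, control2 mouse 3 is the highest for lipogenesis (0.91), and C18:2 mouse 4 is the lowest there (−1.34).

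Of 18 measured genes of insulin and fasting signals, 2 were higher (2.42% of all genes) and 1 lower (2.40%) at the nominal threshold, the higher ones being Igf1 (0.50 ± 0.12 on its main probeset) and Trib1. The lower one was Sesn3, a sestrin, with a log2 change of −0.73 ± 0.22 (adjusted p = 0.11). Trib1, a pseudokinase that restrains lipogenesis, was 8.08, 7.11, 7.15, 7.83 and 6.83 in C18:2 livers, against 6.54, 5.64, 6.55 and 6.74 in control2 livers (log2 change 1.03 ± 0.27, adjusted p = 0.057). Of 14 measured clock genes, 2 were higher, the repressors Cry1 (1.45 ± 0.45, 0.12) and Nfil3 (1.12 ± 0.39, 0.16), and 2 lower, Dbp (−1.09 ± 0.40, 0.20) and Nr1d1, which was among the lowest signals in both groups. The same shares of all genes apply to these counts, and without control2 mouse 3 there were 0 higher and 0 lower. Of 38 measured genes of the respiratory chain, none passed the nominal threshold, and the median was −0.063.

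The same C18:2 dose in WT livers was set against this response. In WT livers 41 probesets had an adjusted p under 0.05 (0.359%) and 431 passed the nominal threshold (3.78%). By limma no probeset had an adjusted p under 0.05 for the difference between the genotypes, where 124 passed the nominal threshold (1.09%). The unadjusted 95% interval of that difference had a median half-width of 0.47 in log2. An adjusted p under 0.05 takes a larger difference than that, so differences well above 0.47 could also be missed at this number of mice. Srebf1 had a log2 change of −2.57 ± 0.41 in PPARα −/− and −1.69 ± 0.43 in WT livers (adjusted p = 0.049 in WT), with a difference of −0.88 ± 0.59 (95% interval −2.06 to 0.30, adjusted p = 0.99). Of the 18 probesets, 3 had an adjusted p under 0.05 in WT livers, namely Srebf1, Fgf1 and the second probeset of Fmo2. The share of all probesets with the same sign in both genotypes was not counted, so signs are given without a background. For 17 of the 18 the sign in WT livers was the same. Gpam was the exception, with 10.34 ± 0.21 in C18:2 and 10.19 ± 0.34 in control2 WT livers (SD, n = 4 each), a log2 change of 0.15 ± 0.18, and a difference between the genotypes of −0.92 ± 0.25 (adjusted p = 0.47), which passed the nominal threshold. Gpam was named for its fall in PPARα −/− livers, and its difference between the genotypes uses those same values. The difference is therefore no separate support. Ehhadh had a change of 0.75 ± 0.25 in WT livers and a difference of −0.86 ± 0.35 (interval −1.56 to −0.17, adjusted p = 0.89). The PPARα targets had a median of 0.63 in WT livers, with 11 of 25 higher at the nominal threshold against 2.34% of all genes, and the acute phase genes one of −0.18. The WT median was −0.29 for lipogenic and 0.25 for interferon-induced genes. For immediate early genes it was −0.55, with 2 of 20 lower at that threshold, as were 87 of all 6661 genes. Their genotype difference passed it for 3 of 20, as for 79 of all 6661 genes.

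C18:3 and C10:0 were given in the same volume, with livers taken at the same time, and their values against controls share the same 4 control2 livers. Linolenic acid has 1 double bond more than linoleic acid, and capric acid is a saturated fatty acid of shorter chain. Against these controls, 1132 probesets (9.92%) had an adjusted p under 0.05 with C18:3 and 753 (6.60%) with C10:0, beside the 18 with C18:2. Set against each other, however, no probeset separated C18:2 and C18:3 at an adjusted p under 0.05 by limma, with 84 past the nominal threshold (0.736%), and 2 separated C18:2 and C10:0 (0.0175%), with 305 past the nominal threshold (2.67%). The median half-width of the 95% intervals was 0.30 in both contrasts. Among the 18 probesets none passed the nominal threshold in either contrast. Srebf1 differed by 0.21 ± 0.38 between C18:2 and C18:3 (interval −0.55 to 0.97) and by −0.60 ± 0.38 between C18:2 and C10:0 (interval −1.36 to 0.17), and Fmo2 by 0.06 ± 0.50 (−0.94 to 1.06) and 0.32 ± 0.50 (−0.68 to 1.32). Fkbp5 was lower with C18:2 than with C10:0 by 0.74 ± 0.36 in log2 (interval −1.45 to −0.03, adjusted p = 0.48). Against the shared controls, the median of the lipogenic list was −0.81 with C18:3 and −0.37 with C10:0. In the same order it was 0.19 and 0.35 for PPARα targets, and 0.42 and 0.03 for interferon-induced genes. Acute phase genes had 0.31 and 0.83, immediate early genes 0.776 and 0.325, and all genes −0.024 and −0.062. Differences between these medians were not tested.

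The 2 probesets that separated C18:2 and C10:0 belong to Cab39l and Caap1. Cab39l, a scaffold protein of the kinase Lkb1, averaged 8.35 ± 0.23 with C18:2 and 8.89 ± 0.15 with C10:0 (SD, n = 5 each), a log2 difference of −0.54 ± 0.09 SE (adjusted p = 0.00030), and 8.35 ± 0.19 in the control2 livers (n = 4). Its other probeset, which has the higher signal over the series, differed by −0.13 ± 0.20 (adjusted p = 0.87), so that Cab39l is named after its values were seen. Caap1, an inhibitor of apoptosis, averaged 4.70 ± 0.33 with C18:2 and 5.59 ± 0.26 with C10:0, a difference of −0.89 ± 0.18 (adjusted p = 0.018), and 4.36 ± 0.44 in the control2 livers. Caap1 differed by 0.34 ± 0.19 between C18:2 and control2 (adjusted p = 0.44).

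**Figure D4:**
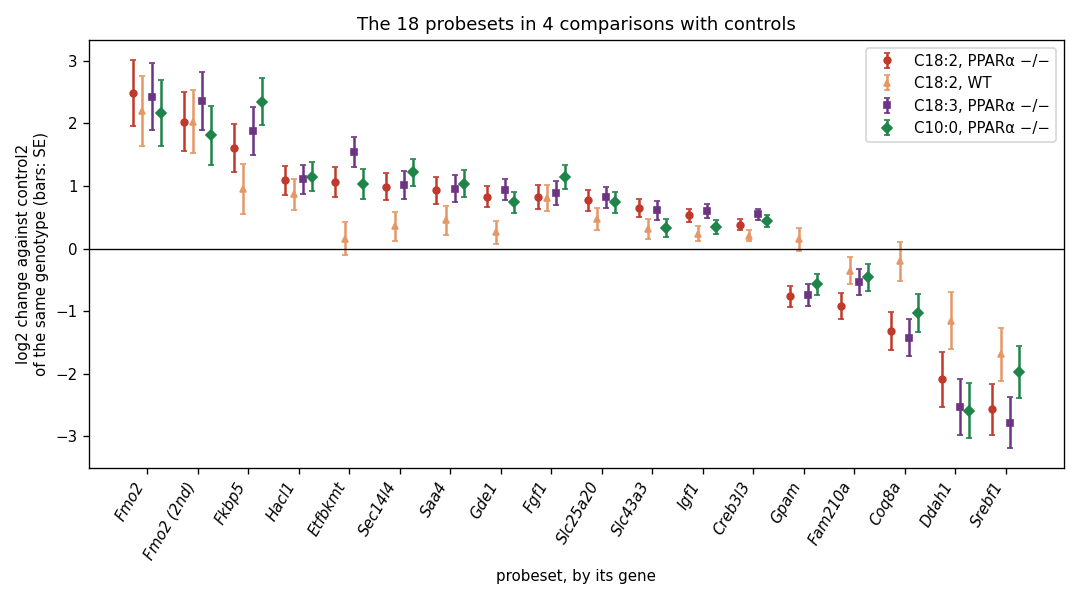
Log2 change with SE of the 18 probesets with an adjusted p under 0.05 for C18:2 in PPARα −/− liver (red circles), beside their change with C18:2 in WT liver (orange triangles) and with C18:3 (purple squares) and C10:0 (green diamonds) in PPARα −/− liver, each against control2 of its genotype. The 3 PPARα −/− comparisons share their 4 controls. Gpam lies at −0.76 in PPARα −/− livers and at 0.15 ± 0.18 in WT livers (adjusted p = 0.83 by limma).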

How the data were processed

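Individual mouse livers were hybridised to Affymetrix whole-genome mouse arrays. The authors deposited linear probeset intensities from GC-RMA (GCRMA 2.20 per the labels), quartile normalized and filtered on an inter-quartile range of at least 0.25 in log2 per the methods. The log2 of the 11412 probesets without AFFX controls was taken. Low values were thus pulled together by the background model, and no read depth applies. limma 3.58.1 fitted 1 mean for each of 20 groups over 93 arrays (73 residual and 2.74 prior degrees of freedom), followed by empirical Bayes moderation and Benjamini-Hochberg adjustment over all probesets of a contrast. A probeset with 1 symbol (10279) stood for a gene, and of several the one with the highest mean signal (6661 genes). Signals under the 5th percentile of a group's arrays were called the lowest signals. Genes with such signals in both groups stayed in the counts and medians of their lists. Named were genes with an adjusted p under 0.05 (of these up to 15 each way without overlap), the genes the study names, and up to 5 each way per direct contrast; other list members were named after their values were seen. Members and lists were chosen with earlier results of these data known. On simulated data of 11412 probesets with the C18:2 against control2 design, the fit found 40, 78, 98 and 100% of changes of 0.5, 1, 2 and 3 in log2, with 8 false calls. There 50 probesets were changed at each size, and the noise was normal, independent and of 1 SD per probeset in all groups. The real arrays differed in spread (SD of the deviations 0.274 to 0.434 in the 9 arrays), so these shares do not measure the power in the real data. No arrays held identical values. Same-numbered mice had deviations correlated by −0.025 to 0.121, so numbers were not taken as pairs. Software was R 4.3.3, Python 3.11.15 and matplotlib 3.10.9.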

Additional observations from a re-analysis of the deposited data

Results flagged for a closer look

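In 10 of 148 checks, of 74 probesets in both PPARα −/− groups, a single mouse stood apart from its group by Dixon's test, and about 1 in 20 would by chance. Control2 mouse 3 did so 4 times, with a log2 signal of 10.54 for Fasn (the other controls 8.13 to 8.44), 10.80 for Gpam (9.86 to 10.01), 11.67 for Slc2a2 (11.19 to 11.24) and 10.28 for Cyp3a13 (11.07 to 11.23). Control2 mouse 1 had 9.39 for Lpcat3 (8.87 to 8.95). Of the C18:2 mice, mouse 1 had 10.25 for Acadl (9.68 to 9.82), mouse 2 had 6.47 for Klf2 (7.07 to 7.30), mouse 4 had 11.81 for Ldha (11.37 to 11.49) and 4.24 for Fam210a (5.26 to 5.65), and mouse 5 had 7.60 for Pdk4 (6.45 to 6.72).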

How the results depend on the processing

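The count of 18 probesets with an adjusted p under 0.05 became 0 when only the 9 arrays compared were fitted, 32 with the 37 arrays of the later run, 28 after an inter-quartile range filter of 0.25 over all arrays, 33 with an intensity trend, 3 with array weights, 9 after quantile normalization, 60 for log2 of the value plus 16, and 136 with the replicate number as a block, and 1 to 107 on leaving out 1 mouse. No control2 mouse had the number of C18:2 mouse 5, so the block also took that mouse out of the comparison. Leaving out C18:2 mouse 5 alone gave 107, so 136 is not the effect of the block by itself. The 535 probesets past the nominal threshold became 353 with only the arrays compared and 346 with array weights, and 246 to 677 on leaving out 1 mouse. For the 2 probesets that separated C18:2 and C10:0 the counts were 0 with only the arrays compared, 4 in the later run, 31 with array weights, 1 after quantile normalization and 6 with the constant, and 1 to 4 on leaving out 1 mouse. The genotype difference kept its count of 0 but for 1 probeset without WT control2 mouse 4 (0 to 1), and C18:2 against C18:3 its count of 0 under all alternatives. Srebf1 lost its adjusted p under 0.05 when only the arrays compared were fitted (adjusted p = 0.083). Of genes near 0, Cd36 was at 0.127 with array weights, Fabp4 at −0.011 with the constant and −0.059 with the replicate block, and on leaving out 1 mouse Cd36 ranged between −0.412 and 0.107, Fabp4 between −0.335 and 0.473, Txnip between −0.084 and 0.269 and Pdk4 between −0.503 and 0.101. The 74 named probesets had 1405 values over these alternatives. Of these values 1223 kept their direction and side of the threshold, 122 lost and 45 gained an adjusted p under 0.05, and 15 changed sign. Of the 74, only the 18 called probesets had an adjusted p under 0.05 to lose. The values of gene lists and of lipogenic genes without single mice were added after seeing the data. The causes were not tested. The number of mice limits the precision.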

Other observations

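In PPARα −/− livers given C18:2 against control2, several other gene groups leaned one way with few or no members past the nominal threshold, an unadjusted limma p under 0.01. Of 31 measured genes of RNA processing and ribosome biogenesis, 26 had a positive log2 change (median 0.16), with 1 higher and 1 lower at that threshold. Of 20 measured genes of the unfolded protein response, 15 had a negative log2 change (median −0.16), and of 38 measured respiratory chain genes 34 did, with none past the threshold in either list. On leaving out 1 mouse these medians lay between 0.08 and 0.19, −0.21 and −0.06, and −0.08 and −0.03 for the 3 lists in this order. Without control2 mouse 3, 25 of the 38 respiratory chain genes had a negative log2 change. For all 6661 genes the median was −0.029, with 43.1% positive and 56.9% negative. Of all genes 2.42% were higher and 2.40% lower at the nominal threshold. All 10 endothelial cell markers had a positive log2 change (median 0.17), and their mean log2 signal was 7.23 to 7.60 in C18:2 and 6.89 to 7.59 in control2 livers, while the 18 Kupffer cell and macrophage markers were divided 9 to 9.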
